A study of Rattus norvegicus with 3 samples.

Results

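The retina of Sprague-Dawley rats that received the drug named GSK before ischemia was compared with that of rats that had ischemia alone, over every gene that reached 1 CPM (count scaled to library size) in either library. Of 32883 genes in the files, 15169 met this rule. All animals were at postnatal day 60. In the library named HIOP (high intraocular pressure), saline from a needle had raised the intraocular pressure to 110 mmHg during 60 min, and the retina was collected after 12 h of reperfusion. The library named HIOP_GSK came from rats given GSK into the anterior chamber 24 h before the same procedure. A library named CTL, labelled as having had no treatment although the protocol also describes a sham needle at 2.66 kPa, stands beside the values as background. Neither the identity and dose of GSK nor how many animals each library holds is given in the sources used here. No library of vehicle injected into the anterior chamber was analysed, so the drug and its injection cannot be told apart. Each group was 1 library. No difference therefore has a replicate check, and the 95% intervals below cover counting error only.

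Ischemia-reperfusion of the retina stops the blood supply under high pressure and then restores it. Stressed glia and vessels then release chemokines, small proteins that attract leukocytes. Neutrophil-attracting chemokines of the CXC family bring in neutrophils, those of the CC family chiefly bring in monocytes, and endothelial selectins and integrin ligands hold these cells at the vessel wall. Many of the genes involved are switched on by the transcription factor nuclear factor kappa B. A dissected retina can also carry pieces of lens, cornea and other neighbouring tissue. Genes were therefore read in separate programmes: retinal, myeloid, vascular, carried-over tissue and injury signalling.

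The libraries held 16090064 counts in CTL, 17221510 in HIOP and 15132754 in HIOP_GSK, and a fold below is a ratio of counts scaled for these totals with TMM factors close to 1, followed in parentheses by its exact (Clopper-Pearson) 95% interval. Where 3 counts stand together, they are the deposited counts of CTL, HIOP and HIOP_GSK, in that order. Transcripts of the rod list took 4.63%, 3.997% and 3.07% of counts, so the labelled tissue was present in each library. Bulk RNA cannot tell fewer cells of a type from less RNA per cell.

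Most genes lay close together in the pair of libraries. The median log2 ratio of HIOP_GSK over HIOP was -0.0017, 14249 genes (93.9%) were within 2-fold, and the 5th and 95th percentiles were -0.55 and 0.93. Past 2-fold, 679 genes (4.48%) were higher in HIOP_GSK and 241 (1.59%) were lower. Past 4-fold, 145 were higher and 42 were lower. For 284 of the higher genes and 88 of the lower genes the whole counting interval lay beyond 2-fold. A gene below 1 CPM in 1 library of the pair was compared only through the other, where it was higher. The filter therefore favours calls of such genes. In HIOP they include Kcnj10, Slc18a3, Slc17a8, Gpr34, P2ry12, F13a1, Ccl24, Aplnr, Pycard and Aim2, and in HIOP_GSK Rbp7, Aox4 and Sptlc3. In HIOP over CTL, on the same genes, 1403 (9.25%) were at least 2-fold higher and 1027 (6.77%) lower. These latter ratios share the HIOP library with the ratios of HIOP_GSK over HIOP, and are given only side by side with them. For genes named because they passed 2-fold, the place of HIOP above or below HIOP_GSK was set by that choice. An order of the 3 libraries given below for such genes is therefore no separate result.

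The programmes separated. Of 206 signalling genes compared, 36 (17.5%) were at least 2-fold lower in HIOP_GSK, beside 1.59% of all genes, and 7 were higher. In HIOP over CTL, 146 of these 206 genes had passed 2-fold upward and 4 downward, beside 9.25% and 6.77% of all genes. The lists were also chosen with earlier results of these data known. HIOP is the denominator of the ratio, so 1.59% is not a like baseline for a set rich in genes high in HIOP. Of 110 myeloid genes, 52 (47.3%) were at least 2-fold higher, beside 4.48% of all genes, and 1 was lower. Of 88 genes of carried-over tissue, 43 (48.9%) were higher and 3 were lower. The 141 retinal genes had 10 (7.09%) higher and 2 (1.42%) lower, shares near those of all genes, and the 89 vascular genes had 7 (7.87%) higher and 8 (8.99%) lower. Median log2 ratios were -0.17 for signalling, 0.93 for myeloid, 0.95 for carried-over, -0.03 for retinal and 0.15 for vascular genes. Most genes past 2-fold were in no list, 539 of the 679 higher and 191 of the 241 lower.

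**Figure D1:**
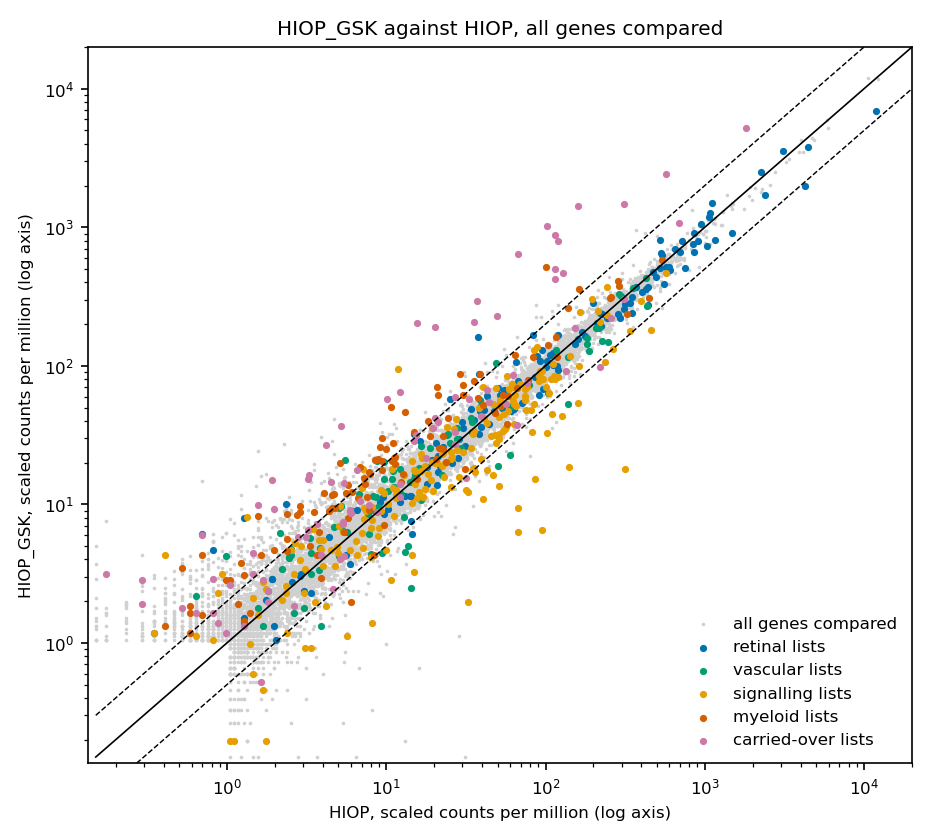
Scaled CPM of each of the 15169 genes in HIOP (x axis) and HIOP_GSK (y axis), both on log axes, with members of the gene lists coloured by programme, the line of equality solid and 2-fold limits dashed; genes with 0 to 2 counts in a library are drawn at the edge. The coloured genes furthest below the lower dashed line are signalling genes such as Cxcl6 (5418 against 273 counts), and myeloid and carried-over genes lie mostly above the line of equality.

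The widest separation in the lower direction was in chemokines that attract neutrophils. All 4 compared members were at least 2-fold lower in HIOP_GSK, with a median log2 ratio of -2.21. Cxcl6 had 1, 5418 and 273 counts and was 17.6-fold lower (15.6 to 19.97). Cxcl1 had 4, 2408 and 285 and was 7.50-fold lower (6.63 to 8.51). The other two, Cxcl2 with 0, 800 and 247 counts and Cxcl3 with 0, 558 and 187, were 2.88-fold lower (2.49 to 3.33) and 2.65-fold lower (2.24 to 3.14). All 4 genes encode ligands of the neutrophil receptor Cxcr2. HIOP was thus the high library for each of them, CTL was at or near 0, and HIOP_GSK lay between, still 75.4-fold higher (29.1 to 279) than CTL for Cxcl1.

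The promoters of the signalling genes were searched for 2 short motifs, because many chemokine genes are known targets of nuclear factor kappa B. Those of 6 chemokine and cytokine genes that were lower in HIOP_GSK are shown, and all 6 hold a kappa B match. They do not stand for the lower genes as a set. Others of these, such as Sele, Icam1 and Tnfaip2, had no match. The sequences are from RefSeq on the build GRCr8, 250 bases before to 50 bases after the annotated start, written 5′ to 3′ on the strand of the gene, with matches to the kappa B consensus on either strand in capitals. Cxcl6 lies at chr14:17596368-17596667, Cxcl1 at chr14:17479272-17479571 and Cxcl2 at chr14:17467206-17467505, all in 1 cluster on the minus strand. Cxcl10 lies at chr14:15988816-15989115 on the plus strand, Ccl20 at chr9:91836909-91837208 on the plus strand and Il6 at chr4:5894526-5894825 on the minus strand.
Cxcl6: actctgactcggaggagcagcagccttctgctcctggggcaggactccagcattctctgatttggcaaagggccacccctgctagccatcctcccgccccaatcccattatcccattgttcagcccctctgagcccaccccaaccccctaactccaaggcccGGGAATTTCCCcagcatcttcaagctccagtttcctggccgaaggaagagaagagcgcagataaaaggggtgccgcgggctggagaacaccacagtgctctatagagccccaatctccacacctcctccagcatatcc
Cxcl1: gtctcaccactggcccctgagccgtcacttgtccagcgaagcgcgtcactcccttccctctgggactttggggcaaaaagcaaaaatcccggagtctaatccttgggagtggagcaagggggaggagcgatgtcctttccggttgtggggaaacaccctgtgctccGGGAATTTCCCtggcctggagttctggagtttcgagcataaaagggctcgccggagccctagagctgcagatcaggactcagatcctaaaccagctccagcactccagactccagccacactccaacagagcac
Cxcl2: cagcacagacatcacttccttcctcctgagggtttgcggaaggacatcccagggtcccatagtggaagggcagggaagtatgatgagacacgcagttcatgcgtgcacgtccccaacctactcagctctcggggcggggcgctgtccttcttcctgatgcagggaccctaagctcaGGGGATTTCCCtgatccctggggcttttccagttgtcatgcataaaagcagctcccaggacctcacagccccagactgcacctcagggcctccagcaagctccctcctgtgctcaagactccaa
Cxcl10: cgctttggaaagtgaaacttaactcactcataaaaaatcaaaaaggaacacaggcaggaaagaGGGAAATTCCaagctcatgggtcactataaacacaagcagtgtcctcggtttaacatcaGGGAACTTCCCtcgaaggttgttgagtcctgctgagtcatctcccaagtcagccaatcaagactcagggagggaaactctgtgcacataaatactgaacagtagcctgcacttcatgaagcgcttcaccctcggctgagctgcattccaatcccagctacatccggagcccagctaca
Ccl20: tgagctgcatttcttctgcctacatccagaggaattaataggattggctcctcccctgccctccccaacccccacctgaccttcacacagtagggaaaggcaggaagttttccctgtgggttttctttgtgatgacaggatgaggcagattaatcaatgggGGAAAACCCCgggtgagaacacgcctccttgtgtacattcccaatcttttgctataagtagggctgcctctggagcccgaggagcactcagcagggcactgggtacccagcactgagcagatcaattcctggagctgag
Il6: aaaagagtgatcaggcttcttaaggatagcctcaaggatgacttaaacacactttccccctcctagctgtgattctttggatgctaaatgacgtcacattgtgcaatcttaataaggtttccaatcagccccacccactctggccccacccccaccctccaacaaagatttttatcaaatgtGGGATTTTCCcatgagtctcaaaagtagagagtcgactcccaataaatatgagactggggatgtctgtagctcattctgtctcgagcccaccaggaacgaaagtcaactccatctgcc
The Cxcl6 and Cxcl1 stretches have the same 11 letters, which begin 88 and 84 bases before the start, and the Cxcl2 stretch begins 74 bases before it. Cxcl10 holds 2 stretches, beginning 187 and 128 bases before the start, apart from an AP-1 match that begins 96 bases before it. Among all 27457 promoters of this length in the table, 7.60% held the kappa B consensus. Of the 40 signalling and leukocyte adhesion genes at least 2-fold lower in HIOP_GSK, 31 had a promoter in the table and 13 of these (41.9%) held it. Of the 172 other compared genes of those lists, 124 had a promoter and 27 (21.8%) held it. The AP-1 motif TGANTCA, searched on both strands, was in 7.33% of all promoters, in 8 of the 31 (25.8%) and in 16 of the 124 (12.9%). These matches describe letters and show neither binding nor a cause.

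Among the other CXC chemokines, 4 of 10 were at least 2-fold lower in HIOP_GSK and 1 was higher. Cxcl10, which attracts T cells through Cxcr3, had 7, 1154 and 143 counts and was 7.17-fold lower (6.02 to 8.59). Cxcl11, another ligand of Cxcr3, had 0, 539 and 194 and was 2.47-fold lower (2.09 to 2.92). Cx3cl1, the neuronal and endothelial ligand of the microglial receptor Cx3cr1, had 487, 1403 and 504 and was 2.47-fold lower (2.23 to 2.74), which put HIOP_GSK at the level of CTL. Pf4, the platelet and macrophage chemokine, went the other way with 9, 23 and 124 counts and was 6.07-fold higher (3.87 to 9.93), with a log2 ratio of 2.5 from counts and 4.63 from the deposited TPM values (abundance scaled for transcript length and library). Cxcl12, a homeostatic chemokine, had 615, 282 and 349 counts and stayed within 2-fold.

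CC chemokines divided in the same manner, with 6 of 14 at least 2-fold lower and 2 higher. Ccl20, the ligand of Ccr6, had 0, 1143 and 96 counts and was 10.6-fold lower (8.58 to 13.2). Ccl2, the chief attractant of monocytes, had 3, 2758 and 813 and was 3.01-fold lower (2.78 to 3.26). Ccl7, a further monocyte attractant, had 0, 693 and 165 and was 3.73-fold lower (3.14 to 4.45). The list was not lowered as a whole. Ccl3, made by activated phagocytes, had 3, 384 and 286 counts and a log2 ratio of -0.25, Ccl6 had 23, 333 and 544 and 0.88, and the eosinophil attractant Ccl24 had 1, 7 and 66 and was 10.6-fold higher (4.88 to 27.4).

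Of 16 cytokines, 8 were at least 2-fold lower and none was higher, with a median log2 ratio of -0.92. Csf3, the growth factor of neutrophils, had 0, 561 and 30 counts and was 16.6-fold lower (11.5 to 24.8). Il6 had 0, 140 and 21 and was 5.92-fold lower (3.73 to 9.86). Csf1, the growth factor of microglia and macrophages, had 134, 1891 and 680 and was 2.47-fold lower (2.26 to 2.70). The interleukin 1 genes were not alike. Il1a had 2, 183 and 43 counts and was 3.78-fold lower (2.70 to 5.40), Il1b had 1, 868 and 451 and was 1.71-fold lower (1.52 to 1.92), inside the 2-fold limit, and their antagonist Il1rn had 7, 458 and 533 and a log2 ratio of 0.39. Tnf had 0, 3 and 0 counts and was too low to be compared. With TPM the log2 ratio of Il1a was -0.97, just inside the limit.

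The feedback genes of nuclear factor kappa B, which this factor induces and most of which restrain it, lay below 0 as a list with a median log2 ratio of -0.54, but 1 of 16 passed 2-fold. That gene was Tnfaip2, with 50, 1464 and 230 counts, 5.65-fold lower (4.91 to 6.52). Nfkbia, which encodes the inhibitor that holds the factor in the cytoplasm, had 1033, 2774 and 1508 and was 1.63-fold lower (1.53 to 1.74). Tnfaip3, the ubiquitin-editing inhibitor A20, had 1655, 1813 and 960 and was 1.68-fold lower (1.55 to 1.82), and Rela, a subunit of the factor itself, had 427, 1110 and 780 and was 1.26-fold lower (1.15 to 1.39).

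Interferon-stimulated genes had no common direction. Of 33 compared, 1 was at least 2-fold lower, 1 was higher and the median log2 ratio was -0.07, although 32 of the 33 were at least 2-fold higher in HIOP than in CTL. Gbp5, a guanylate-binding protein, had 22, 872 and 206 counts and was 3.76-fold lower (3.23 to 4.40). Ifit1 had 20, 122 and 272 and was 2.51-fold higher (2.02 to 3.13). Isg15, the ubiquitin-like modifier, had 13, 335 and 191 and a log2 ratio of -0.63.

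Immediate early genes, transcription factors and phosphatases induced within minutes of a stimulus, had 4 of 31 at least 2-fold lower, none higher, and a median log2 ratio of -0.29. Fosl1 had 3, 2172 and 656 counts and was 2.94-fold lower (2.69 to 3.21). Egr1 had 2477, 7840 and 2756 and was 2.53-fold lower (2.42 to 2.64), and Junb had 256, 4021 and 1624 and was 2.20-fold lower (2.07 to 2.33). Fos and Jun, which form the AP-1 factor, had log2 ratios of -0.29 and -0.29. In the list of signalling from gp130 receptors through JAK and STAT3, 1 of 11 was lower. This was Cish, a feedback inhibitor of cytokine receptors, with 76, 1749 and 499 counts, while Stat3 had 1627, 9807 and 7138 and Socs3 16, 1728 and 1067, both within 2-fold.

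Further secreted products were lower singly. Ptx3, a soluble pattern recognition protein, had 8, 1633 and 99 counts and was 14.6-fold lower (12.0 to 18.1). Ptges, the inducible prostaglandin E synthase, had 11, 254 and 49 and was 4.60-fold lower (3.38 to 6.38), while Ptgs2, the cyclooxygenase upstream of it, had 173, 582 and 390 and a log2 ratio of -0.40. Mmp3, a stromelysin that degrades matrix, had 1, 4551 and 2014 and was 2.01-fold lower (1.90 to 2.12), or -0.89 on the log2 scale from TPM, inside the limit. Slpi, a protease inhibitor that surface epithelia also secrete, stood on the other side with 10, 202 and 1432 counts and was 7.98-fold higher (6.89 to 9.30). The acute phase list as a whole had 2 of 6 members lower and 1 higher, prostaglandin synthesis had 1 of 6 lower and matrix proteases had 2 of 13 lower.

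**Figure D2:**
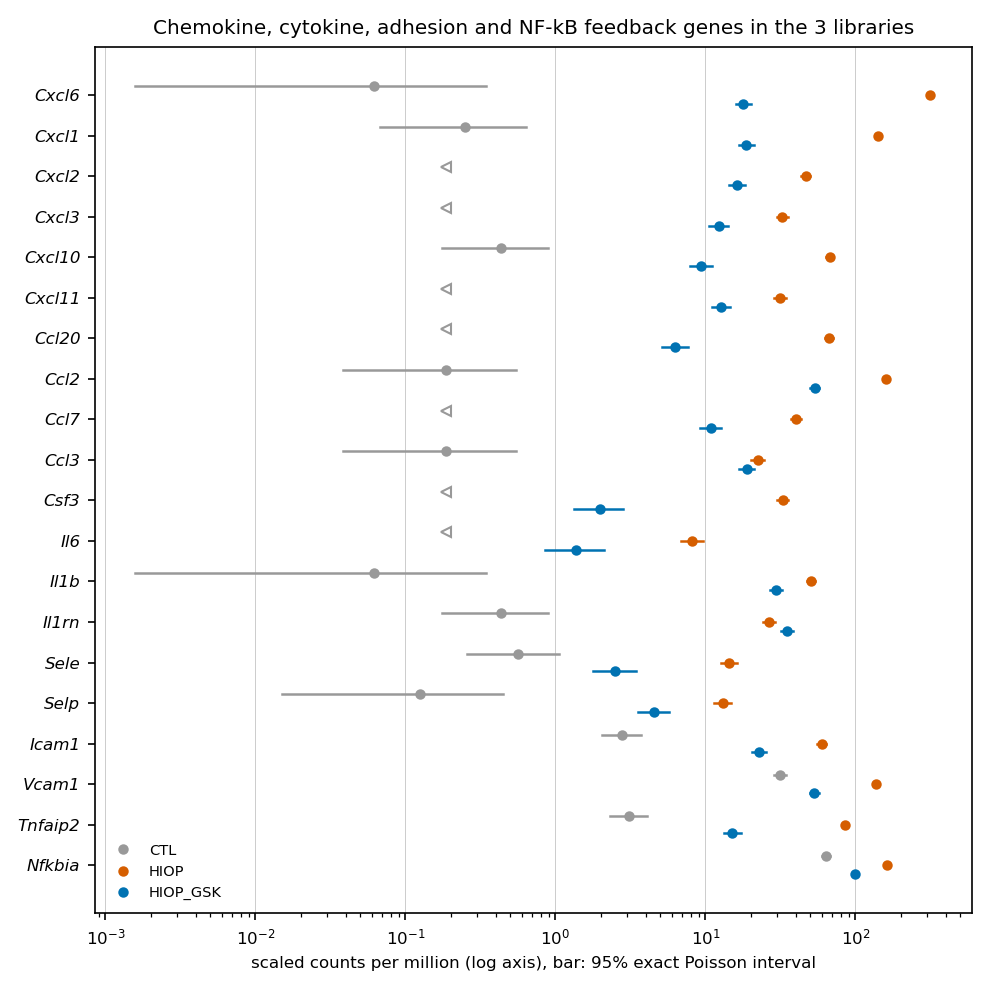
Scaled CPM (log axis) of chemokine, cytokine, adhesion and feedback genes in CTL (grey), HIOP (orange) and HIOP_GSK (blue), with exact 95% Poisson intervals as bars; open triangles mark a count of 0, drawn at the level of 3 counts. HIOP lies to the right of HIOP_GSK for each gene shown but Il1rn, with the widest gap at Cxcl6 (5418 against 273 counts).

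Among the vascular lists, leukocyte adhesion had the lowest median. Of 6 compared, 4 were at least 2-fold lower, 1 was higher and the median log2 ratio was -1.38. Sele, the endothelial selectin that lets leukocytes roll, had 9, 246 and 38 counts and was 5.75-fold lower (4.07 to 8.32). Selp, its platelet and endothelial relative, had 2, 224 and 69 and was 2.88-fold lower (2.19 to 3.83). Icam1, the ligand of leukocyte integrins, had 45, 1019 and 347 and was 2.61-fold lower (2.31 to 2.95), and Vcam1 had 506, 2360 and 808 and was 2.59-fold lower (2.39 to 2.81). For all 4 genes HIOP was the highest library and HIOP_GSK lay above CTL. Icam2, which endothelium carries at rest, had 28, 43 and 65 and a log2 ratio of 0.74, and Cd34, a marker of endothelial and stem cells, had 98, 37 and 94 and was 2.86-fold higher (1.94 to 4.31).

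Endothelial identity genes did not share that direction. Their median log2 ratio was 0.47, 2 of 15 were at least 2-fold higher and none was lower. Vwf, the adhesive protein that endothelium stores, had 567, 838 and 1580 counts and was 2.12-fold higher (1.95 to 2.31), Tek, the angiopoietin receptor, had 238, 166 and 305 and was 2.07-fold higher (1.71 to 2.52), and Cdh5, the cadherin of endothelial junctions, had 136, 258 and 246 and a log2 ratio of 0.10. None of 12 blood-retina barrier genes passed 2-fold. Cldn5, the barrier claudin, had 189, 87 and 142 and a log2 ratio of 0.86, while Mfsd2a, a lipid transporter of barrier endothelium, had 105, 45 and 25 and -0.64.

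Pericyte genes, which mark the contractile cells around capillaries, had 3 of 9 at least 2-fold higher and none lower. Kcnj8 and Abcc9, subunits of a potassium channel gated by ATP, had 53, 17 and 64 and 364, 149 and 314 counts and were 4.24-fold higher (2.45 to 7.72) and 2.37-fold higher (1.95 to 2.90). Anpep had 53, 95 and 316 and was 3.75-fold higher (2.97 to 4.76). Other members did not follow, since Pdgfrb had 563, 417 and 487 and Rgs5 391, 151 and 145, with log2 ratios of 0.39 and 0.11. Smooth muscle genes had none of 7 past 2-fold. Among angiogenic signals, 2 of 15 were lower and 1 was higher. Angptl4 had 27, 862 and 287 counts and was 2.67-fold lower (2.33 to 3.06), Apln had 27, 67 and 20 and was 2.97-fold lower (1.78 to 5.18), its receptor Aplnr had 50, 11 and 33 and was 3.38-fold higher (1.67 to 7.41), and Vegfa had 3418, 3849 and 2295 with a log2 ratio of -0.57.

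Clotting and fibrinolysis genes had 2 of 11 lower and a median log2 ratio of -0.45. Serpinb2, an inhibitor of plasminogen activators, had 1, 235 and 76 counts and was 2.75-fold lower (2.11 to 3.60). Red blood cell transcripts, a measure of blood in the tissue, took 0.0130% of counts in CTL, 0.0291% in HIOP and 0.0139% in HIOP_GSK. Hba-a2 had 1524, 3762 and 1486 counts and Hbb 531, 1140 and 568, and both were near 2-fold lower in HIOP_GSK. The globin genes are close copies of each other and their counts are uncertain. The part of blood in the vascular and myeloid values was not tested.

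Myeloid genes lay the other way from the chemokines. In the pan-myeloid and macrophage list, 21 of 28 were at least 2-fold higher in HIOP_GSK, none was lower and the median log2 ratio was 1.18. Cybb, the catalytic subunit of the phagocyte oxidase, had 54, 183 and 761 counts and was 4.68-fold higher (3.98 to 5.53). Ncf1, a cytosolic subunit of the same enzyme, had 23, 88 and 302 and was 3.87-fold higher (3.04 to 4.96). Tyrobp, an adaptor of myeloid receptors, had 11, 99 and 211 and was 2.40-fold higher (1.88 to 3.08). Cd163, the hemoglobin scavenger receptor of tissue macrophages, had 10, 49 and 148 and was 3.40-fold higher (2.45 to 4.80). Ptprc, which marks all leukocytes, had 42, 420 and 642 and a log2 ratio of 0.78, and Lyz2 had 177, 1980 and 2438 and 0.47. Runx1 was the member furthest down, with 13, 534 and 272 counts and a log2 ratio of -0.80.

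Homeostatic microglia genes had 8 of 14 at least 2-fold higher and none lower. Their median log2 ratio was 1.02, but it was 0.773 with TPM and 0.467 over the members that reached 5 CPM. The size of the rise in this list therefore depends on genes with low counts. Cx3cr1, the fractalkine receptor, had 64, 27 and 126 counts and was 5.26-fold higher (3.45 to 8.29). Csf1r, on whose signal microglia depend, had 310, 225 and 710 and was 3.55-fold higher (3.05 to 4.15). Gpr34 had 38, 9 and 53 and was 6.63-fold higher (3.24 to 15.3), and the purine receptor P2ry12 had 32, 7 and 20 and was 3.22-fold higher (1.31 to 9.01). For Cx3cr1, Csf1r and Gpr34, HIOP was the lowest of the 3 libraries and HIOP_GSK the highest. Mertk, which other cells of the retina also express, had a log2 ratio of 0.06. TPM values gave a log2 ratio of 1.55 for Gpr34, against 2.47 from counts.

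Monocyte genes had 5 of 6 higher. S100a4, a calcium-binding protein of motile cells, had 68, 359 and 1063 counts and was 3.33-fold higher (2.96 to 3.77), F13a1 had 18, 12 and 66 and was 6.19-fold higher (3.32 to 12.6), and Thbs1 had 288, 2766 and 5434 and was 2.21-fold higher (2.11 to 2.32). Vcan had 1972, 7638 and 4721 and a log2 ratio of -0.52. Each of these genes has expression outside monocytes too.

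Neutrophil genes were split. Of 12 compared, all 12 were at least 2-fold higher in HIOP than in CTL, and in HIOP_GSK over HIOP 3 were higher, 1 was lower and the median log2 ratio was 0.42. S100a9 and S100a8, the calprotectin subunits that neutrophils hold in bulk, had 4, 984 and 579 and 0, 405 and 306 counts, with log2 ratios of -0.59 and -0.23. Csf3r, the receptor of Csf3, had 15, 360 and 933 and was 2.92-fold higher (2.58 to 3.31). Mmp9, the gelatinase of neutrophil granules, had 11, 162 and 457 and was 3.18-fold higher (2.65 to 3.82). Trem1, an amplifying receptor, had 0, 103 and 30 and was 3.05-fold lower (2.01 to 4.74). Cxcr2, the receptor of the chemokines above, had 0, 212 and 220 and a log2 ratio of 0.22. Summed over the list, neutrophil transcripts took 0.000261%, 0.0194% and 0.0262% of counts. That sum joins members that went both ways, with Csf3r and Mmp9 higher in HIOP_GSK and S100a9 and S100a8 below 0. The lower chemokine counts in HIOP_GSK thus stood beside a list without 1 direction. Whether the sum follows the number of neutrophils was not tested. Mpo and Ltf, granule genes of neutrophil precursors, had no count in any library.

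Phagocyte activation genes had 5 of 15 higher, none lower and a median log2 ratio of 0.51. Spp1, osteopontin, had 116, 498 and 1330 counts and was 3.01-fold higher (2.71 to 3.34), Itgax had 4, 145 and 317 and was 2.46-fold higher (2.02 to 3.02), and Fabp5, a fatty acid carrier that epithelia and lens also express, had 847, 1724 and 7835 and was 5.12-fold higher (4.86 to 5.40). Complement genes had 8 of 18 higher and none lower. C1qb, a subunit of the initiating complex, had 54, 124 and 236 and was 2.14-fold higher (1.72 to 2.69), C5ar1, the receptor of the C5a fragment, had 2, 70 and 183 and was 2.94-fold higher (2.22 to 3.94), and C3 had 160, 1098 and 1815 and a log2 ratio of 0.90. Antigen presentation had 2 of 14 higher, Tap1 with 59, 520 and 1103 and RT1-Bb with 22, 34 and 71. TPM put RT1-Bb at a log2 ratio of 0.85, inside the limit. None of 3 compared lymphocyte genes passed 2-fold, and the T cell genes Cd3e and Cd3g had 5, 3 and 2 and 2, 5 and 1 counts.

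Most genes of retinal neurons were within 2-fold, as were 93.9% of all genes. No gene of the bipolar (15 compared), horizontal (5), ganglion (16) or synaptic (17) lists passed 2-fold. Nefl, the light neurofilament of ganglion cells, had 3971, 1828 and 1834 counts and a log2 ratio of 0.18, and Thy1 had 1569, 707 and 735 and 0.23. Pou4f1, a ganglion cell transcription factor, had 95, 44 and 42 and 0.10. In HIOP over CTL, 11 of these 16 ganglion cell genes were at least 2-fold lower, and HIOP_GSK lay at the level of HIOP. Trpm1 and Prkca of bipolar cells had log2 ratios of -0.15 and -0.15.

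Starburst amacrine cells, the cholinergic interneurons of the retina, gave the widest neuronal differences. Chat, which makes acetylcholine, had 259, 40 and 152 counts and was 4.28-fold higher (3.00 to 6.23). Slc18a3, the transporter that loads it into vesicles, had 97, 14 and 71 and was 5.71-fold higher (3.19 to 11.0). Slc5a7, the choline transporter, had 222, 22 and 121 and was 6.19-fold higher (3.91 to 10.2). Slc17a8, the glutamate transporter of another amacrine type, had 55, 6 and 18 and was 3.38-fold higher (1.28 to 10.4). In all 4 genes HIOP was the lowest library, CTL the highest, and HIOP_GSK between them. The remaining 14 of 18 amacrine genes were within 2-fold, among them Gad1 and Gad2, the enzymes of inhibitory GABA neurons, with 3852, 2638 and 2167 and 1769, 886 and 938 counts and log2 ratios of -0.11 and 0.25. With TPM the log2 ratio of Slc5a7 was 1.77, against 2.52 from counts.

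Most photoreceptor genes were within 2-fold, at a share near the 93.9% of all genes. The rod median log2 ratio was -0.26 over 22 genes, 1 of them at least 2-fold lower and none higher, and the cone median was -0.24 over 12, also with 1 lower and none higher. Summed counts of the lists did not go the same way. The scaled sum of HIOP_GSK was 0.761 of that of HIOP (0.758 to 0.764) for rods and 1.06 of it (1.03 to 1.10) for cones. Gnat1, the alpha subunit of rod transducin, had 54433, 72910 and 30364 counts and was 2.13-fold lower (2.10 to 2.16). Opn1mw, the middle-wave cone opsin, had 806, 248 and 93 and was 2.37-fold lower (1.86 to 3.04). Abca4, the retinoid transporter of outer segments, had 26010, 25370 and 13898 and a log2 ratio of -0.70, whereas Sag, the rod arrestin, had 51347, 53170 and 54145 and 0.20, and Arr3, the cone arrestin, had 2618, 362 and 338 and 0.07. Rod members thus ranged over both signs, from -1.09 to 0.30.

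Müller glia, which span the retina and clear potassium, water and glutamate, had 5 of 16 genes at least 2-fold higher and none lower. Kcnj10, their inward rectifier potassium channel, had 312, 12 and 93 counts and was 8.73-fold higher (4.77 to 17.5). Aqp4, the water channel, had 3077, 655 and 1330 and was 2.29-fold higher (2.08 to 2.52). Slc1a3, the glutamate transporter, had 3613, 1427 and 2557 and was 2.02-fold higher (1.89 to 2.15). Gpr37 had 2055, 256 and 492, and the transcription factor Sox2 had 710, 428 and 872. HIOP was the lowest library for all 5. Other Müller genes were within 2-fold. Glul, glutamine synthetase, had 28101, 16119 and 16120 and a log2 ratio of 0.17, Rlbp1, a retinoid carrier, had 4143, 738 and 915 and 0.48, and Car14 had 1715, 375 and 286 and -0.22. From TPM, Kcnj10 had a log2 ratio of 2.09, against 2.92 from counts.

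Gfap, the intermediate filament of astrocytes and stressed Müller cells, had 580, 642 and 2470 counts and was 4.33-fold higher (3.97 to 4.73). It was the 1 of 16 reactive glia genes past 2-fold, and the list's median log2 ratio was 0.00. Lcn2, a secreted lipocalin of reactive astrocytes, had 223, 7483 and 5615 and a log2 ratio of -0.24, Timp1 had 74, 2898 and 2645 and 0.04, and Vim had 3566, 8977 and 12341 and 0.63. Gfap was thus high in HIOP_GSK and not in HIOP, while Lcn2 and Timp1 were high in both ischemic libraries. The 4 compared astrocyte genes were within 2-fold.

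**Figure D3:**
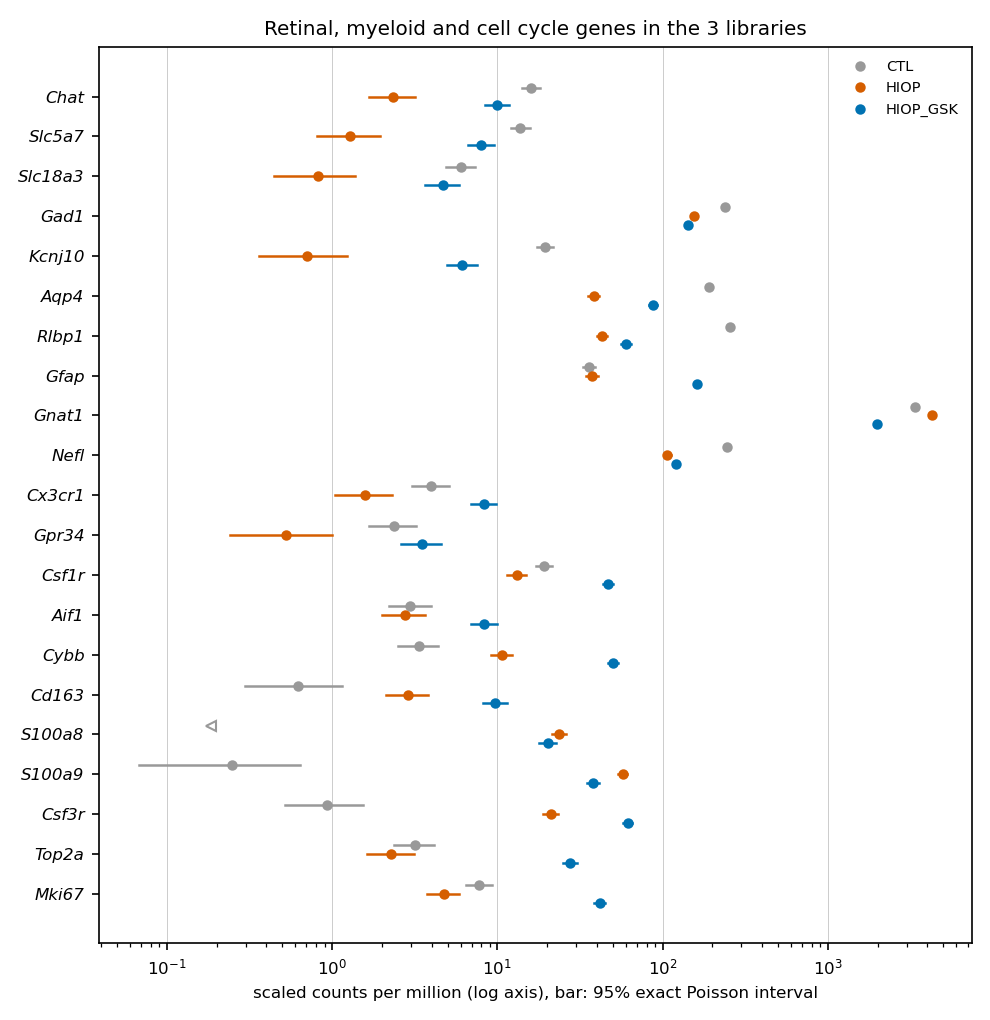
Scaled CPM (log axis) of retinal, myeloid and cell cycle genes in CTL (grey), HIOP (orange) and HIOP_GSK (blue), with exact 95% Poisson intervals as bars; the open triangle marks a count of 0, drawn at the level of 3 counts. HIOP is the lowest library for Chat, Slc5a7, Slc18a3, Kcnj10 and Aqp4, and Nefl lies near the same level in HIOP and HIOP_GSK.

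Transcripts of the lens differed most between the libraries in the higher direction. Alpha and beta crystallins, its bulk proteins, took 0.141% of counts in CTL, 0.383% in HIOP and 1.25% in HIOP_GSK. Gamma crystallins took 0.00912%, 0.0506% and 0.426%. At least 2-fold higher were 7 of 8 alpha and beta crystallins, 6 of 7 gamma crystallins and 11 of 15 other lens fibre genes. None of the crystallins was at least 2-fold lower, and 1 of the 15 lens fibre genes was. Crygb had 208, 1761 and 15461 counts and was 9.89-fold higher (9.41 to 10.4). Crygc, Crygd and Crygs were 9.51-fold higher (8.94 to 10.1), 8.86-fold higher (8.51 to 9.22) and 7.68-fold higher (7.33 to 8.06), and Cryba4 was 6.66-fold higher (6.36 to 6.99). Cryaa had 11140, 30992 and 79789 and was 2.90-fold higher (2.86 to 2.94), while Cryab, which retinal cells also express under stress, had 3689, 11745 and 16409 and a log2 ratio of 0.65. The gamma crystallin genes are near copies, so reads may be split among them.

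Lens genes that are not crystallins had similar folds. Lgsn, lengsin, had 35, 267 and 3104 counts and was 13.1-fold higher (11.6 to 14.9). Bfsp1, a beaded filament protein, had 84, 346 and 2910 and was 9.47-fold higher (8.47 to 10.6), and Mip, the lens aquaporin, had 202, 639 and 4436 and was 7.82-fold higher (7.19 to 8.51). Within 2-fold were Tdrd7 with 5361, 5354 and 4611, Pitx3 with 43, 67 and 66 and Foxe3 with 121, 88 and 61. The lens connexin Gja3 had 95, 55 and 230 and was 4.71-fold higher (3.50 to 6.44).

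Genes of the cornea and ocular surface were higher in HIOP_GSK than in HIOP in 11 of 18 members and lower in none, but their highest library was often CTL. Summed, they took 0.0379%, 0.0122% and 0.0210% of counts. Krt12, the keratin of corneal epithelium, had 1950, 56 and 249 counts and was 5.01-fold higher (3.73 to 6.82). Krt5, a keratin of basal epithelium, had 880, 33 and 229 and was 7.82-fold higher (5.41 to 11.6). Aldh3a1, the corneal aldehyde dehydrogenase, had 1325, 113 and 271 and was 2.70-fold higher (2.16 to 3.39). Krt16, a keratin of stressed epithelium, broke this order with 0, 3 and 48 counts.

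Pigment epithelium had 1 of 12 genes higher and shares of 0.0888%, 0.0479% and 0.0547%. Rpe65, its retinoid isomerase, had 1021, 254 and 438 counts and a log2 ratio of 0.95, and Pmel had 2958, 2305 and 1405 and -0.54. Stroma and fibroblasts had 3 of 10 higher, among them Col1a1 with 821, 346 and 639 and Postn with 1100, 464 and 904. Oligodendrocyte genes had 2 of 7 higher, though Mbp, a myelin protein, had a log2 ratio of 0.01. Skeletal muscle genes had none of 4 past 2-fold. Genes of the orbital glands, which lie around the eye, had 2 of 3 higher and none lower, a median log2 ratio of 1.23, and shares of 0.00337%, 0.00242% and 0.00458%. The gland lipid genes Elovl3 and Awat2 of that list had 3, 13 and 0 and 0, 4 and 0 counts, the other way from the higher members. Both were below 1 CPM in both ischemic libraries and were not compared. The list therefore does not show 1 direction for gland tissue.

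The share of carried-over tissue therefore moved with the comparison, and lens, corneal and stromal transcripts were higher in HIOP_GSK beside the myeloid, Müller and pericyte genes. Their part in those differences was not tested. When the lens lists and the 20 most abundant genes were left out of the scaling, the median over all genes moved by 0.0208 on the log2 scale. Taking all genes of the carried-over and cell cycle lists out of the count left 617 genes at least 2-fold higher and 238 lower. This step only subtracts listed genes. It cannot show whether unlisted genes come from the same tissues.

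**Figure D4:**
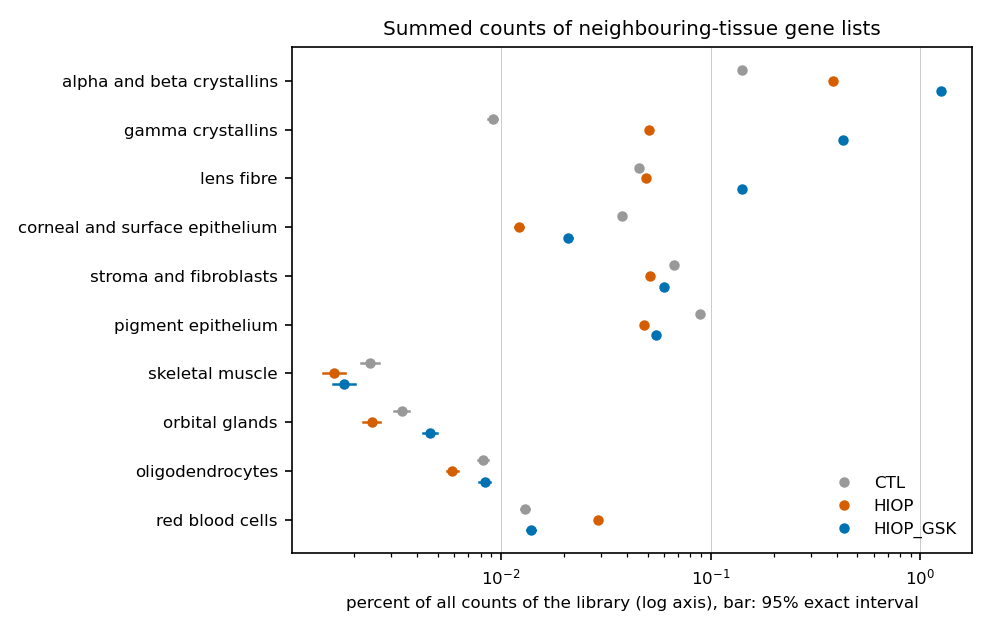
Summed counts of each neighbouring-tissue list as a percent of all counts of the library (log axis) in CTL (grey), HIOP (orange) and HIOP_GSK (blue), with exact 95% intervals as bars. The 3 lens lists are highest in HIOP_GSK, the corneal, stromal and pigment epithelium lists are highest in CTL, and red blood cell transcripts are highest in HIOP.

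A small set of genes had few or no counts in HIOP_GSK. Rbp7, a retinol carrier, had 17, 111 and 0 counts and was 32.9-fold lower against the floor of 3 counts, with a lower interval bound of 26.3-fold. Bpifa6, of the family of bactericidal and permeability-increasing proteins, had 60, 226 and 3 counts and was 66.9-fold lower (22.6 to 327). Sptlc3, a subunit of the enzyme that starts sphingolipid synthesis, had 100, 276 and 10 counts and was 24.5-fold lower (13.1 to 51.7), with a log2 ratio of -2.55 from TPM against -4.38 from counts. Aox4, an aldehyde oxidase, had 23, 48 and 0 counts. Sdr16c6, a short-chain dehydrogenase, had 10, 63 and 2, Ctse, the protease cathepsin E, had 32, 171 and 15, and Aadac, an ester hydrolase, had 2, 25 and 0. By counts, all 7 were lowest in HIOP_GSK and higher in HIOP than in CTL. For Aadac the interval of HIOP_GSK over CTL ran from 0 to 5.64, so that order is open. Aox4 was within 2-fold in HIOP over CTL, at 1.96-fold (1.17 to 3.38). Mast4 had 0, 27 and 0 counts but is listed at a TPM of 0 in each library, so its count rests on 1 measure. The same held on the other side for Wbp11, a splicing protein gene with 0, 0 and 76 counts and a TPM of 0 throughout. Gprc5d, an orphan receptor, had 1, 0 and 27 counts and was 10.1-fold higher against the floor of 3 counts, with a lower interval bound of 7.69-fold.

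Cell cycle genes had 19 of 34 at least 2-fold higher, none lower and a median log2 ratio of 1.24. Top2a, the topoisomerase of dividing cells, had 51, 39 and 418 counts and was 12.1-fold higher (8.68 to 17.2). Mki67, the proliferation marker, had 125, 81 and 632 and was 8.79-fold higher (6.96 to 11.2). Cdk1, the kinase that drives mitosis, had 16, 17 and 94 and was 6.23-fold higher (3.69 to 11.1), and Rrm2, which supplies deoxynucleotides, had 7, 19 and 112 and was 6.64-fold higher (4.06 to 11.4). Top2a, Mki67 and Cdk1 were within 2-fold between CTL and HIOP, and Rrm2 was higher in HIOP. Replication genes were less moved, Pcna with 497, 987 and 1030 and Mcm7 with 467, 575 and 539 having log2 ratios of 0.23 and 0.08. In no list were Pbk, a mitotic kinase, with 2, 2 and 44 counts, and Fam111a, a protease linked to replication, with 131, 12 and 225. Their log2 ratios were 3.65 and 4.18 from counts and 2.24 and 2.92 from TPM. Unlike Top2a, Mki67 and Cdk1, Fam111a was 11.6-fold lower in HIOP than in CTL (6.43 to 23.1). TPM gave log2 ratios of 2.79 for Top2a and 2.46 for Mki67, against 3.52 and 3.10 from counts. Epithelia of lens and cornea, leukocytes and glia can all divide, and which cells held these transcripts was not tested.

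Most genes of cell death and stress were within 2-fold, as were 93.9% of all genes. A short list with no gene past the limit is therefore not set apart from all genes. Of 10 necroptosis genes none did, and their median log2 ratio was 0.00. Ripk3, the kinase that commits cells to necroptosis, had 6, 92 and 96 counts and a log2 ratio of 0.23, its partner Ripk1 had 603, 1281 and 927 and -0.29, and their effector Mlkl had 28, 111 and 83 and -0.24. Among 16 apoptosis and p53 genes, with a median of 0.01, 1 was lower, the death receptor Fas with 36, 250 and 65 counts, 3.42-fold lower (2.59 to 4.56). In the inflammasome list 2 of 9 were higher, Pycard with 13, 16 and 48 and Aim2 with 5, 6 and 18, both expressed by myeloid cells. Both were below 1 CPM in HIOP and were compared only through HIOP_GSK. The sensor Nlrp3 had 16, 274 and 187 and a log2 ratio of -0.38.

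Of 11 antioxidant genes, 2 were higher and none was lower, with a median log2 ratio of 0.44. Nqo1, a quinone reductase, had 45, 135 and 258 counts and was 2.15-fold higher (1.74 to 2.67), and Ftl1, a ferritin chain, had 1125, 2059 and 4153 and was 2.27-fold higher (2.15 to 2.40). Hmox1, heme oxygenase, had 27, 3654 and 5363 and a log2 ratio of 0.72. No gene passed 2-fold in the lists of the integrated stress response (10 compared), heat shock (7), hypoxia and glycolysis (11), cholesterol (14), glucocorticoid targets (7), clock (18), ribosomal proteins (28), oxidative phosphorylation (19) or common reference genes (13). Their medians lay between -0.28 for the integrated stress response and 0.37 for hypoxia and glycolysis, with 0.00 for oxidative phosphorylation.

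**Figure D5:**
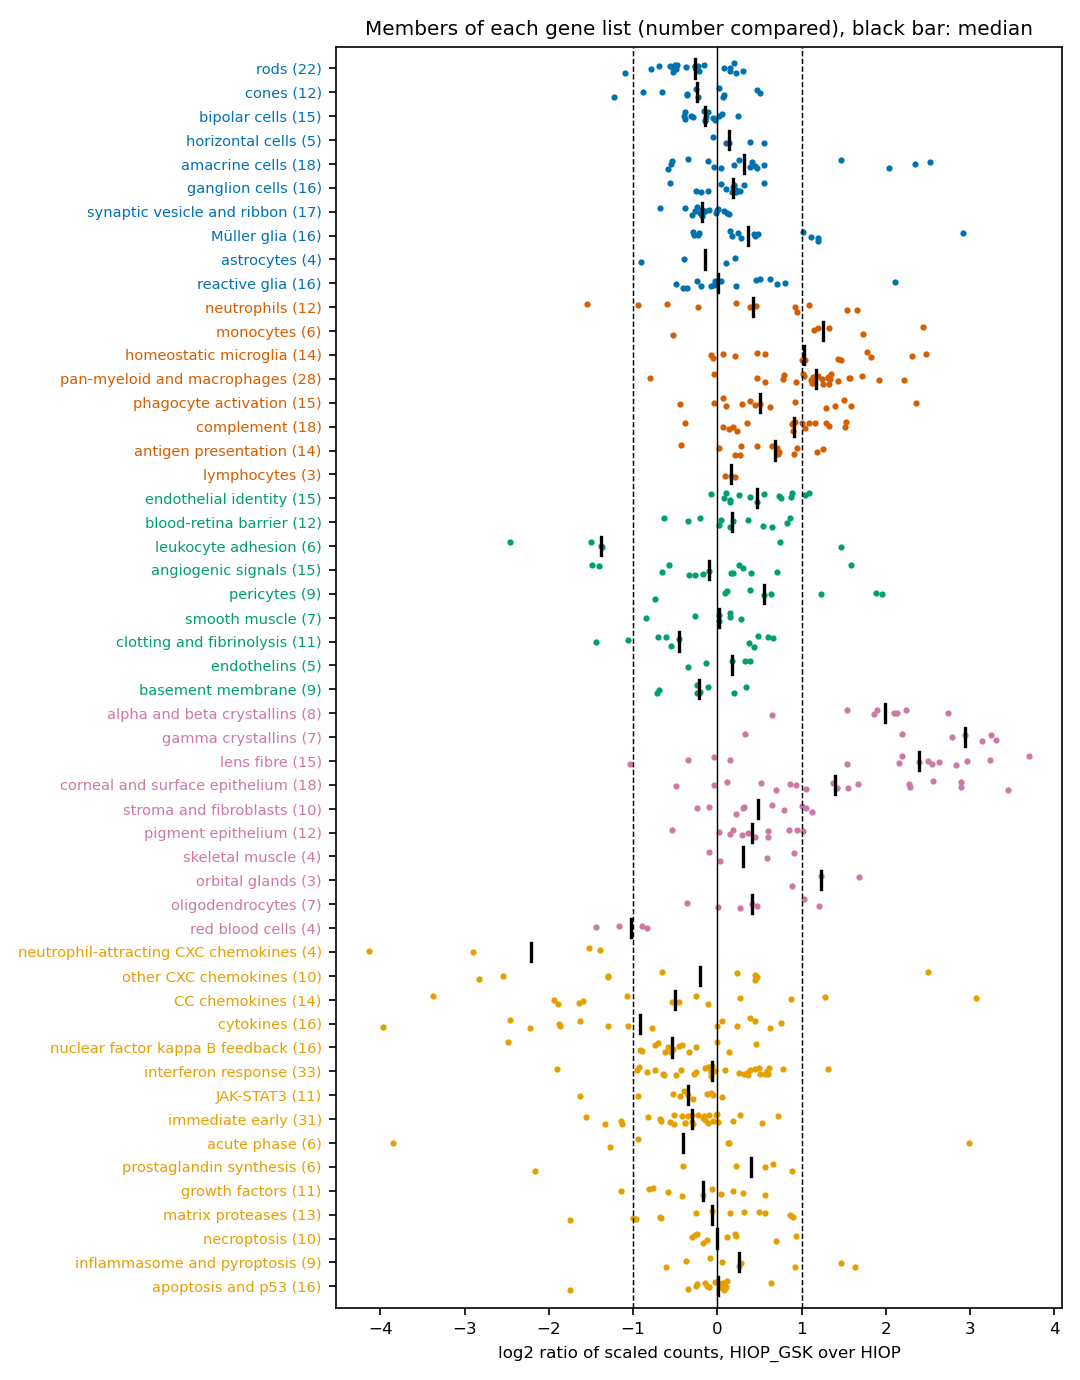
Log2 ratio of HIOP_GSK over HIOP (x axis) for every compared member of each retinal, myeloid, vascular, carried-over and signalling list with at least 3 members, coloured by programme; each dot is a gene, black bars are list medians and dashed lines mark 2-fold. The neutrophil-attracting CXC chemokines sit at a median of -2.21, and the gamma crystallins at 2.94.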

How the data were processed

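Retinal RNA of 3 libraries, 1 per group, was measured after depletion of ribosomal RNA, with directional libraries, per the labels' protocols. The authors deposited, for 32883 genes, a whole-number count and a TPM value. STAR 2.5.4b, RSEM 1.3.1 and the build Rnor_6.0 are named, without their roles, per the submitters' processing notes. Whether counting used strand is not stated in the sources used here, and overlapping and antisense genes are therefore uncertain. Count and deposited TPM do not come from 1 quantification: 545 genes in HIOP and 503 in HIOP_GSK reached 20 counts with TPM listed at 0. TPM therefore served as an alternative.

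Genes with at least 1 CPM in HIOP or HIOP_GSK were compared. Counts were scaled with TMM factors of edgeR 4.0.16 in R 4.3.3, which were 1.001, 0.995 and 1.005 in CTL, HIOP and HIOP_GSK. Log2 ratios used a prior count of 2, and the limit was 2-fold. Folds divide scaled counts with no prior added, and carry exact Clopper-Pearson intervals at 95% (scipy 1.17.1). Against a count of 0 a fold was computed with 3 counts per library as the floor (0.186, 0.175 and 0.197 CPM). The lower bound of the exact interval stands beside it. The reads carry no molecular identifiers, so intervals and floors cover counting error only, not the spread between animals. No test was possible with 1 library a side.

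Genes were grouped in 64 lists of 946 genes, of which 906 were matched by exact symbol and 806 were compared. The members and lists were chosen with earlier results of these data known. Named genes were the 15 with a gene symbol in each direction whose interval bound nearer to 1 was most extreme, and in each list its defining markers, its members with the most counts and those with the most extreme bounds. Of duplicated symbols the entry with more counts was used. Promoters came from the RefSeq table of GRCr8, matched by symbol.

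Scripts were tested on counts simulated for HIOP_GSK over HIOP, with counting noise alone and 15048 genes. Of changes set at 2-fold, which lie on the limit, 45.0% passed it, and of those at 4-fold 100% did. Of 14848 unchanged genes 58 passed, and 95.5% of intervals held the true ratio. Alternatives were total counts, DESeq2 1.42.0 size factors, TMM from the pair alone, scaling without lens lists and the 20 most abundant genes, centring on the median, TPM (pseudocount 0.5), omitting the filter, raising it to 5 CPM, a prior of 0.5 or 10, and limits of 1.5-fold and 3-fold.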

Additional observations from a re-analysis of the deposited data

How the results depend on the processing

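No replicate exists, so none could be left out. No paired analysis was possible because each group is 1 library and the labels give no replicate numbers. Total counts, DESeq2 size factors, TMM factors from the pair alone, scaling without lens lists and the 20 most abundant genes, median centring, TPM and a prior count of 0.5 left the counts over all genes and over each programme within 1.5 times their value, and of the 202 genes past the limit that were named or in lists (193 with TPM) none turned in direction. The counts moved by over 1.5 times under other limits and filters. For all genes, 679 higher and 241 lower became 1448 and 711 with no filter, 308 and 104 at 5 CPM, 1422 and 684 at 1.5-fold, 262 and 81 at 3-fold, and 284 and 88 where the interval bound had to pass 2-fold. A prior count of 10 left 152 lower. Retinal genes had 5 higher at 3-fold, and 9, 0 and 1 lower at 1.5-fold, 3-fold and by the bound. Myeloid genes had 11 higher at 3-fold and 24 by the bound, and 5, 4 and 0 lower with no filter, at 1.5-fold and at 3-fold. Vascular genes had 19, 2 and 2 higher at 1.5-fold, 3-fold and by the bound, and 16 and 1 lower at 1.5-fold and 3-fold. Carried-over genes had 6, 5, 0 and 1 lower with no filter, at 1.5-fold, at 3-fold and by the bound. Signalling genes had 11, 3, 23, 4 and 4 higher with no filter, at 5 CPM, at 1.5-fold, at 3-fold and by the bound, and 60 and 22 lower at 1.5-fold and 3-fold. These shifts follow from the limit or filter itself. Of these 202 genes 180 stayed past it with a prior count of 10, and of the 193 with TPM values 178 did. TPM gave log2 ratios of 1.69 for F13a1 and 2.21 for Krt16, against 2.44 and 3.46 from counts. The acute phase median moved to -1.11 at 5 CPM, where fewer members were compared, and to 0.097 with TPM, which turned its sign from -0.405. The homeostatic microglia median kept its sign but fell from 1.025 to 0.467 at 5 CPM and to 0.773 with TPM. The low counts of HIOP genes such as Kcnj10, Gpr34 and Slc17a8 limit the precision of their folds.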

Other observations

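Some genes of glia and of epithelial junctions were in none of the lists and are named here after their values were seen. Mlc1, a membrane protein of the endfeet of astrocytes and Müller cells, had 968, 352 and 938 counts in CTL, HIOP and HIOP_GSK, and a log2 ratio of 1.58 for HIOP_GSK over HIOP. Ndrg2, an astrocyte gene, had 1656, 433 and 995 and a log2 ratio of 1.37. Frzb, a secreted inhibitor of Wnt signals, had 1154, 185 and 491 and a log2 ratio of 1.57. Lgi4, a secreted glial protein, had 704, 74 and 257. HIOP was the lowest of the 3 libraries for each of these 4 genes. Because they were picked with their values seen, this order is no separate support for that of the 5 Müller genes past 2-fold. Dsp, the desmosomal plaque protein desmoplakin, had 696, 60 and 298 counts, Dsc3 had 186, 14 and 83, and Dsg1, another desmosomal gene, had 90, 5 and 26. CTL was the highest library for all 3 and HIOP the lowest.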
